A study of Homo sapiens with 8 samples.

Results

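PRDM1, XBP1, IRF4, ELL2 and SLAMF7 are 5 genes that mark and maintain the plasma cell state, and their response to the IKKβ inhibitor MLN120B was followed in L363 cells. They were taken by name: all array features that the platform annotation assigns to them were used, which gave 14 features for the 5 genes, out of 15246 features and 4604 named genes on the array. PRDM1 had 3 features, XBP1 2, IRF4 4, ELL2 1 and SLAMF7 4. The genes were read both feature by feature and as the average of the features of a gene.

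L363 is an established human myeloma cell line, and MLN120B is a small molecule that blocks IKKβ, the kinase that frees NF-κB from its inhibitors. Cells received 12.5 µM MLN120B at 37 °C for 8 h (2 samples), 12 h (3 samples) or 24 h (3 samples). Each sample was hybridised in Cy5 on its own 2-colour array against L363 cells given the solvent DMSO in Cy3, and the dyes were never exchanged, so that dye bias and treatment cannot be told apart. All groups share the same line, the same dose and the same kind of control. The labels do not say whether the DMSO cells were matched to each time, nor whether the numbered samples were separate cultures. The p-values therefore cover only the spread between samples, part of which may be technical.

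In textbook terms, a B cell becomes an antibody-secreting plasma cell when a small set of regulators takes over from the B cell programme. IRF4, an interferon regulatory factor family member on which myeloma cells depend, activates PRDM1, and PRDM1 encodes Blimp-1, the repressor that silences B cell genes. XBP1 encodes the transcription factor that widens the secretory pathway, ELL2 an elongation factor that favours the secreted form of antibody heavy-chain mRNA, and SLAMF7 a surface receptor of plasma cells and natural killer cells that is a therapeutic antibody target in myeloma. NF-κB can induce IRF4 in lymphocytes.

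Values are log2 ratios centred on the median of each array, likely MLN120B over DMSO, so that values above 0 mean higher with the inhibitor; the direction rests on the labels' dyes, and turning it would reverse every sign given. No signal intensities were used, so the level of a gene, and whether these markers are present at all in the cells, could not be checked. The arrays fall into 3 runs of database identifiers: sample 3 makes up run 1, with its 12 h and 24 h arrays. Run 2 consists of sample 2 from 8 h with sample 1 from 12 h and 24 h, and run 3 of sample 1 from 8 h with sample 2 from 12 h and 24 h. The SD over features was 1.00 to 1.42 on the arrays of run 2, against 0.21 to 0.58 on the 5 others. Each array held values for 6344 to 13007 features.

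None of the 5 genes passed limma's test over the 3 times, in which no row at all passed. PRDM1 and XBP1 had means of about 0.3 above the array median, IRF4 lay close to it, and ELL2 and SLAMF7 had means below it. For ELL2 and SLAMF7 the low mean came from run 2 alone. PRDM1 was above 0 on 8 of 8 arrays after centring. Of 5411 rows tested, 0 were called at an adjusted p under 0.05 (0%), and 184 had an unadjusted p under 0.05 (3.4%), among them 1 of the 5 genes, PRDM1. In cell populations read in bulk, fewer cells of a type and less RNA per cell cannot be told apart.

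**Figure D1:**
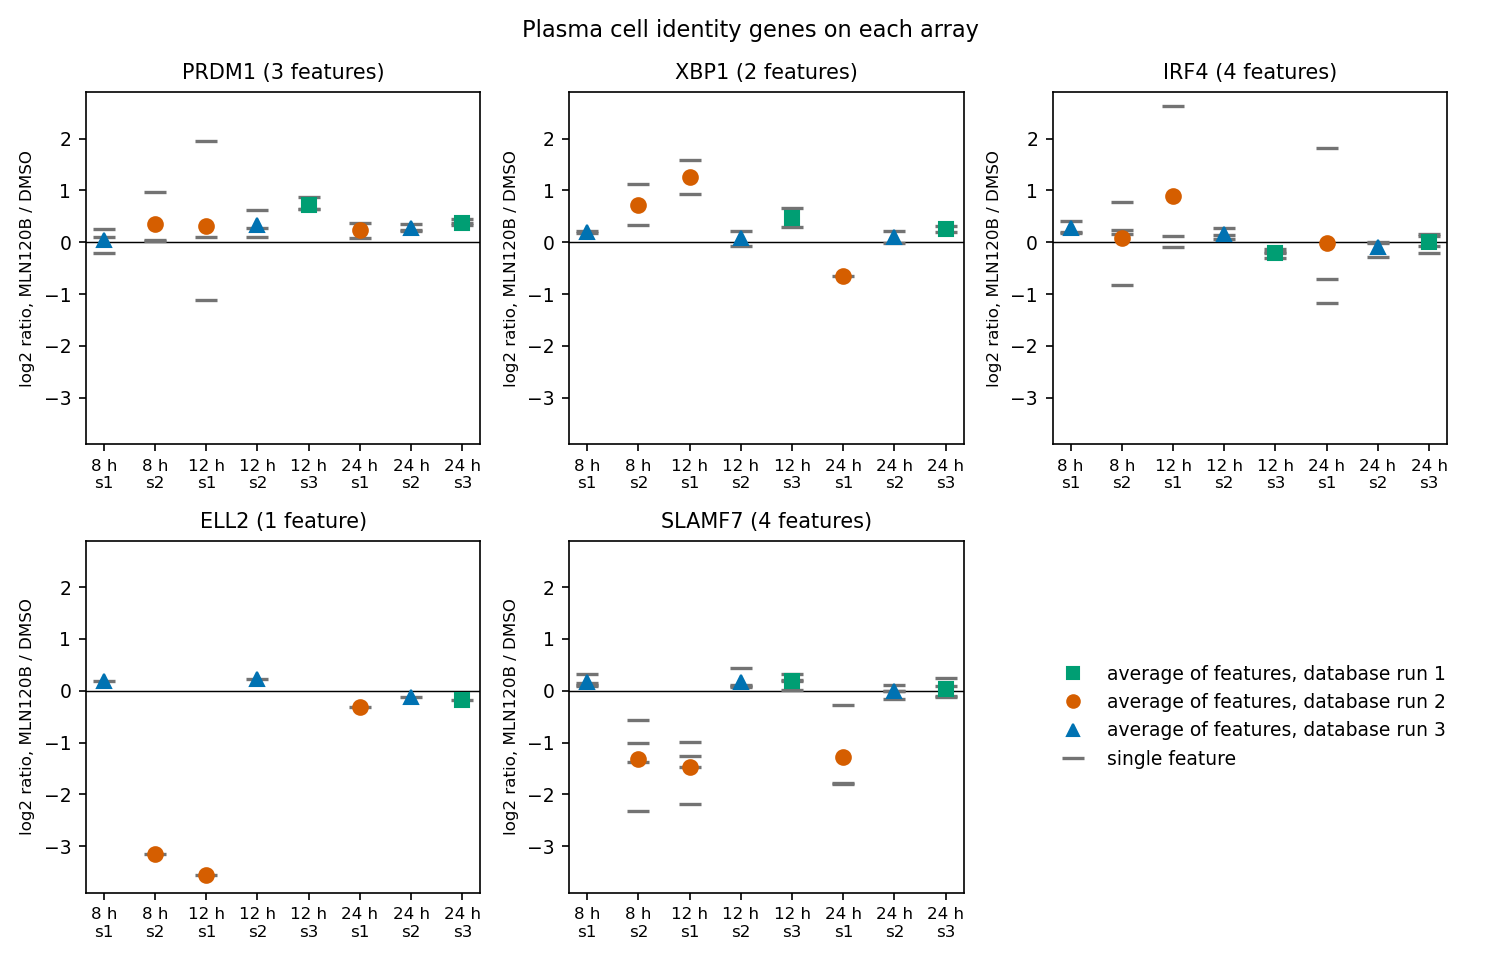
Log2 ratio of MLN120B over DMSO (vertical axis) on each of the 8 arrays (horizontal axis, time and sample number) for the 5 genes. Grey dashes are single features, coloured symbols their average on the array, with the colour and shape giving the database run. With each array centred on its median, PRDM1 is above 0 on 8 of 8 arrays, while the ELL2 and SLAMF7 values far below 0 are all circles of run 2.

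PRDM1, the Blimp-1 gene, stood above the array median at all 3 times. At 8 h its averaged log2 ratio was 0.044 on sample 1 and 0.35 on sample 2. At 12 h it was 0.31, 0.34 and 0.72 on samples 1, 2 and 3, and at 24 h 0.23, 0.275 and 0.38. The times overlapped, with the highest value in sample 3 at 12 h and the lowest in sample 1 at 8 h. Rows above 0 on every array were few, 48 of 3460 rows with 8 values (1.39%). Such counts depend on the centring. The deposited medians were -0.38 and -0.475 on sample 1 at 12 h and 24 h, so that PRDM1 as deposited was below 0 there, though above the array median. The mean over the 3 times was 0.32 ± 0.12 (SE, n = 8, 95% interval 0.045 to 0.59), at percentile 93.3 of all rows. Its unadjusted p was 0.027 and its adjusted p 0.869 in limma's test. This fit treats the arrays as independent, although arrays of the same run correlated (0.26 over all rows). With the run as a random block the PRDM1 mean was 0.33 ± 0.14 (SE), so the interval above is likely too narrow.

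The single features of PRDM1 mostly lay on the same side. Of 23 feature values 21 were above 0, and the 2 below were -0.22 (sample 1, 8 h) and -1.11 (sample 1, 12 h), each from a different feature. On that 12 h array the 3 features read 1.95, 0.10 and -1.11, an SD between features of 1.54, where the median over genes with at least 2 features was 0.76. The averaged value of 0.31 there therefore stands on features that disagreed. On sample 3 at 12 h, the array with the highest average, the 3 features read 0.64, 0.65 and 0.88. The feature means over the 3 times were 0.38 ± 0.21 (SE, n = 7), 0.27 ± 0.13 and 0.30 ± 0.22 (n = 8 each).

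The PRDM1 mean was not carried by 1 run. Its averages were 0.55 in run 1, 0.30 in run 2 and 0.22 in run 3. Without run 2 the mean was 0.30 ± 0.11 (SE, n = 5), without run 1 0.26 ± 0.17 (n = 6) and without run 3 0.39 ± 0.29 (n = 5). The mean thus stayed above 0, with a wider SE without run 1 or run 3. The fits without run 2 or run 3 hold a single array at 8 h, so their SEs do not measure the spread at that time. In the array's own units the order of the runs differed: on run 2 PRDM1 stood at percentiles 64.2 to 70.3 of all rows tested, against 90.8 to 96.8 on 4 of the other 5 arrays and 58.5 on sample 1 at 8 h. Its largest time mean was that of 12 h, 0.46 ± 0.19 (SE, n = 3), with an unadjusted p of 0.041 and an adjusted p of 0.929 in limma's test, against 0.19 ± 0.23 at 8 h (n = 2) and 0.29 ± 0.19 at 24 h (n = 3). The difference between 12 h and 8 h was 0.26 ± 0.30.

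XBP1, the secretory pathway regulator, was above the array median on 7 of 8 arrays. At 8 h it read 0.20 on sample 1 and 0.72 on sample 2. At 12 h it read 1.26, 0.074 and 0.48 on samples 1, 2 and 3, and at 24 h -0.66, 0.096 and 0.26. The highest and the lowest values were both in sample 1, at 12 h and at 24 h, arrays of run 2. The mean over the 3 times was 0.32 ± 0.18 (SE, n = 8, 95% interval -0.081 to 0.72), with an adjusted p of 0.869 in limma's test. With the run as a random block the XBP1 mean was 0.33 ± 0.23 (SE). The intervals for PRDM1 and XBP1 overlap almost wholly, and the XBP1 interval includes 0.

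The value of -0.66 rested on 1 feature, since the other had no value on that array. That other feature of XBP1 was above 0 on all 7 arrays where it was read, from 0.17 to 1.58, and the first was above 0 on 5 of 8, from -0.66 to 1.12. Outside run 2, all 5 averaged XBP1 values were above 0, between 0.074 and 0.48. PRDM1 and XBP1 were the 2 of 5 genes above 0 on all 5 of those arrays, as were 485 of 5075 rows (9.56%). The mean of XBP1 was 0.22 ± 0.11 (SE, n = 5) without run 2, in a fit with a single array at 8 h. The features measure XBP1 transcripts in bulk, and whether they tell the spliced form apart from the unspliced is not known here.

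XBP1 is itself a target of the endoplasmic reticulum stress response, and its promoter carries the element through which ATF6 acts. The site is shown because values of the stress sensors are given beside those of XBP1. In RefSeq's GRCh38.p14 window around the XBP1 start, the stress element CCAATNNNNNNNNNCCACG matched once, on the strand of the gene, from 52 to 34 bases before the start. The stretch printed here spans chr22:28800598-28800626 on the minus strand and holds the match in capitals with flanking bases on both sides.
XBP1: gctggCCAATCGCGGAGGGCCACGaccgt
Of 35116 promoter windows of 300 bases, 27 held this element on either strand (0.0769%). The windows of PRDM1, XBP1 and IRF4 held no match to the κB consensus, which 11.3% of windows hold, nor to the interferon-stimulated response element GAAANNGAAA, which 3.57% hold. PRDM1 and XBP1 each had 2 windows, both of which were searched. A match describes the letters alone, and a missing match says only that those letters are not in these windows.

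IRF4 lay close to the array median. At 8 h it read 0.27 on sample 1 and 0.086 on sample 2. At 12 h it read 0.89, 0.16 and -0.21 on samples 1, 2 and 3, and at 24 h -0.015, -0.090 and 0.0010. The 3 values at 24 h were all within 0.1 of 0, and the 12 h values spread over both sides. The mean over the 3 times was 0.14 ± 0.15 (SE, n = 8; 95% interval -0.19 to 0.47), with an adjusted p of 0.874 in limma's test. Without sample 1 at 12 h, which held the value of 0.89, the mean was 0.039.

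The 4 IRF4 features did not agree on the run 2 arrays. On sample 1 at 12 h, 3 features read 2.63, 0.13 and -0.091, and on sample 1 at 24 h the same 3 read 1.82, -1.17 and -0.70. The SDs between features there were 1.51 and 1.61, against gene-wide medians of 0.76 and 0.65. The feature that read 2.63 and 1.82 was between -0.13 and 0.27 on the other 6 arrays. Taken alone it gave a mean of 0.59 ± 0.32 (SE, n = 8), while 2 others gave 0.081 ± 0.14 (n = 8) and -0.13 ± 0.19 (n = 6), and the fourth, with values on 5 arrays, had too few for a fit. With the median of the features in place of their mean, IRF4 stood at -0.00061 ± 0.13. Of 27 IRF4 feature values 15 were above 0 and 12 below, and on runs 1 and 3 all lay between -0.31 and 0.41.

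ELL2, the elongation factor gene, had the lowest mean of the 5 genes, set by 2 arrays. At 8 h its single feature read 0.19 on sample 1 and -3.15 on sample 2. At 12 h it read -3.55 on sample 1 and 0.22 on sample 2, with no value on sample 3, and at 24 h -0.31, -0.12 and -0.18 on samples 1, 2 and 3. The low pair, sample 2 at 8 h and sample 1 at 12 h, both of run 2, correspond to ratios 8.86 and 11.7 times below 1, and the other 5 values lay within 0.31 of 0. The mean over the 3 times was -1.11 ± 0.50 (SE, n = 7; 95% interval -2.27 to 0.045), at percentile 0.37 of all rows, with an adjusted p of 0.869 in limma's test. With 1 feature, no second reading of ELL2 on the same arrays was available.

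The sign of the ELL2 mean turned without run 2, where it was 0.089 ± 0.12 (SE, n = 4). Without run 3 it was -2.31 ± 0.34 (n = 4). Each of these fits left a single array with an ELL2 value at 8 h and at 12 h. Their SEs therefore do not measure the spread between arrays at those times, and no p-value is given. The run means were -0.18 in run 1, where 1 array had a value, -2.34 in run 2 and 0.099 in run 3. Expressed in SDs of each array, the low pair stood at -3.15 and -3.17, and the third array of run 2, sample 1 at 24 h, at -0.33. Within run 2, ELL2 at 24 h minus 8 h was 2.84 and at 24 h minus 12 h 3.25. In run 3 the same differences were -0.31 and -0.34. Over all arrays 24 h minus 12 h was 1.47 ± 1.19 (SE), with an adjusted p above 0.999 in limma's test.

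SLAMF7, the surface receptor gene, separated by run. At 8 h it read 0.17 on sample 1 and -1.32 on sample 2. At 12 h it read -1.48, 0.17 and 0.18 on samples 1, 2 and 3, and at 24 h -1.29, -0.013 and 0.030. The 3 arrays of run 2 lay between -1.48 and -1.29, and the 5 others between -0.013 and 0.18, so that the runs did not overlap while the times did. The mean over the 3 times was -0.46 ± 0.27 (SE, n = 8; 95% interval -1.06 to 0.15), with an adjusted p of 0.869 in limma's test. Without run 2 it was 0.12 ± 0.10 (SE, n = 5), in a fit with a single array at 8 h.

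The SLAMF7 difference between runs was seen in each of its features. On run 2, 11 of 11 feature values were below 0, from -2.32 to -0.27, and on runs 1 and 3, 16 of 20 were above 0, 3 below and 1 at 0, from -0.16 to 0.43. Of 552 genes with at least 8 feature values on run 2, 8 had all of them below 0 (1.45%). PRDM1 and IRF4, the other members with that many values, had 7 of 8 and 6 of 10 above 0. All run 2 arrays lay below every other array for SLAMF7 and for ELL2, 2 of the 5 genes, and for 492 of 3691 rows with enough values (13.3%). For ELL2 this did not hold in SDs of each array, where sample 1 at 24 h of run 2 stood at -0.33 and the other 24 h arrays at -0.51 and -0.54. PRDM1, XBP1 and IRF4 overlapped between runs, and rows with run 2 above every other array made up 5.96%. This grouping by run was noticed in the values and carries no test. The averaged SLAMF7 values changed little with time within run 2. There 24 h minus 8 h was 0.031, 12 h minus 8 h -0.16 and 24 h minus 12 h 0.19.

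**Figure D2:**
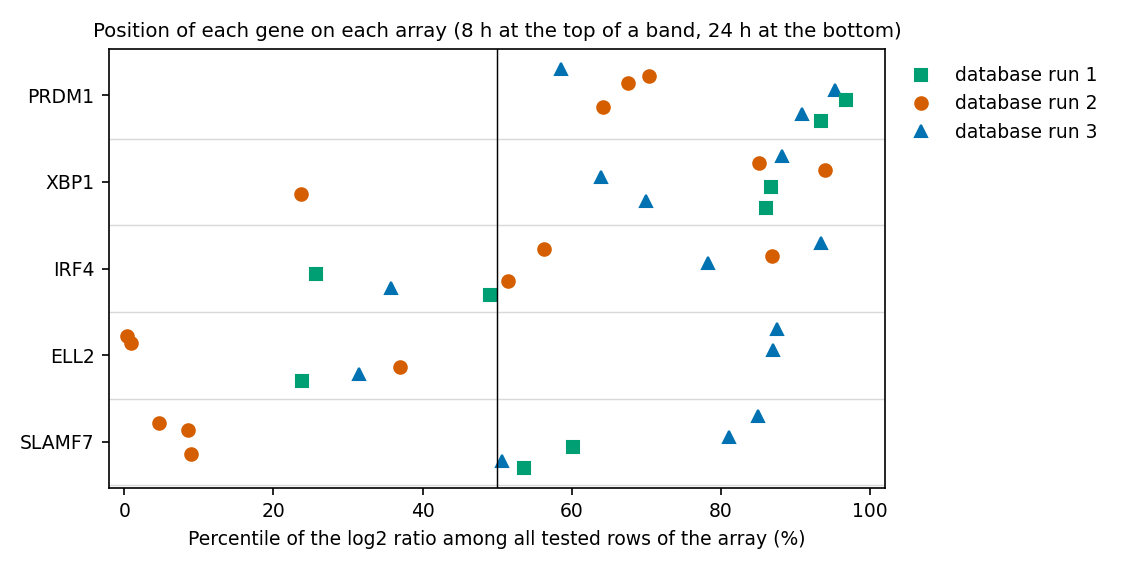
Percentile of each gene's log2 ratio among all tested rows of the same array (horizontal axis, %), with 1 symbol for each array and its shape and colour giving the database run; within a band the arrays run from 8 h at the top to 24 h at the bottom. SLAMF7 sits at percentiles 4.6 to 8.9 on the 3 arrays of run 2 and above 50 on the other 5, and PRDM1 sits above 50 on all 8.

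Ranks within each array take out the unequal spread. SLAMF7 stood at percentiles 4.60, 8.49 and 8.91 on run 2 and at 50.7 to 84.9 elsewhere. ELL2 stood at 0.43 and 0.94 on the low pair of arrays, and at 87.5 and 87.0 on sample 1 at 8 h and sample 2 at 12 h. At 24 h ELL2 stood at 36.9, 31.4 and 23.8 on samples 1, 2 and 3, so that the run 2 array, sample 1, was the highest there. IRF4 ran from percentile 25.7 on sample 3 at 12 h to 93.4 on sample 1 at 8 h. XBP1 stood between 63.9 and 93.9 on 7 arrays and at 23.7 on sample 1 at 24 h.

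The times were set against DMSO and against each other, and none of the 5 genes passed in any of these comparisons. Over all rows limma called 0 at 8 h, 12 h and 24 h (0% each), with 130, 166 and 109 rows at an unadjusted p under 0.05 (2.4%, 3.07% and 2.01%), among them PRDM1 at 12 h and no other of the 5 genes. At 8 h XBP1 averaged 0.46 ± 0.35 and SLAMF7 -0.57 ± 0.52 (SE, n = 2). At 12 h XBP1 averaged 0.60 ± 0.28 (n = 3) and ELL2 -1.67 ± 0.92 (n = 2). At 24 h the 5 genes averaged 0.29 ± 0.19 for PRDM1, -0.10 ± 0.28 for XBP1, -0.035 ± 0.23 for IRF4, -0.20 ± 0.75 for ELL2 and -0.42 ± 0.43 for SLAMF7 (n = 3). Without run 3, the 8 h mean of ELL2 rested on the single array of -3.15.

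Between times, limma called 0 rows for 24 h minus 8 h, 12 h minus 8 h and 24 h minus 12 h (0% each), with 44, 64 and 37 rows at an unadjusted p under 0.05 (0.813%, 1.18% and 0.684%) and none of the 5 genes among them. The XBP1 difference between 24 h and 12 h was -0.70 ± 0.40 (SE; 95% interval -1.61 to 0.21). Within runs it was -0.22 in run 1, -1.92 in run 2 and 0.022 in run 3, so that most of it lay in run 2. The 24 h value of XBP1 in run 2 rested on 1 feature, which read 0.93 at 12 h and -0.66 at 24 h. The other XBP1 feature read 1.58 at 12 h and had no value at 24 h. PRDM1 at 24 h minus 12 h was -0.34, -0.082 and -0.061 in runs 1, 2 and 3, with -0.16 ± 0.27 over the arrays. The run 2 value compares unlike sets of features, since the PRDM1 feature that read 1.95 at 12 h had no value at 24 h. The other PRDM1 features read 0.10 and -1.11 at 12 h, and 0.091 and 0.37 at 24 h. The sign in run 2 therefore depends on the missing feature. IRF4 at 24 h minus 8 h was -0.10 in run 2 and -0.36 in run 3, with -0.21 ± 0.37 over the arrays.

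**Figure D3:**
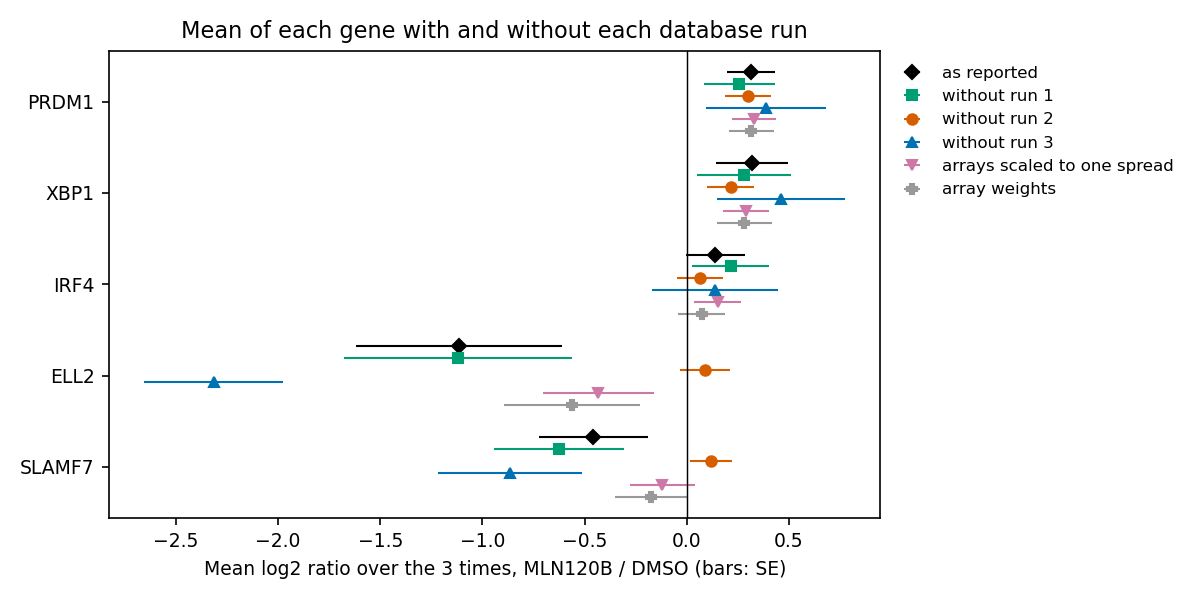
Mean log2 ratio over the 3 times (horizontal axis) for each gene as reported, without each database run, with arrays scaled to one spread and with array weights; bars are SE. PRDM1 stays between 0.26 and 0.39, while ELL2 goes to 0.089 and SLAMF7 to 0.12 without run 2. Without run 2 or run 3 a single array is left at 8 h, so those bars do not measure the spread there.

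The means of PRDM1 and XBP1 moved less between settings than those of ELL2 and SLAMF7. With all arrays scaled to one spread PRDM1 was at 0.33 ± 0.11 and XBP1 at 0.29 ± 0.11, against -0.43 ± 0.27 for ELL2 and -0.12 ± 0.16 for SLAMF7 (SE). When limma weighted the arrays by their estimated precision, they were 0.32 ± 0.11, 0.28 ± 0.13, -0.56 ± 0.33 and -0.18 ± 0.18. On the values as deposited the median of all rows was -0.12, and PRDM1 stood at 0.19 and XBP1 at 0.19, both above it.

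Other plasma cell genes lay on both sides of the array median, in a balance that moved with the setting, and none passed. Of 20 surface and secretory genes of plasma cells 11 were tested, 0 passed in either direction, and 7 had a mean above 0 and 4 below; their median was 0.22, beside -0.0077 over all rows, of which 48.4% were above 0. TNFRSF17, the receptor BCMA through which survival factors act on plasma cells, was at 0.48 ± 0.16 (SE, n = 8), and CD27, a TNF receptor family member of memory B cells and plasma cells, at 0.36 ± 0.33. TNFRSF17 was above 0 on 7 of 8 arrays, the exception being -0.36 on sample 1 at 24 h. CD27 was at -0.050 without run 2. The list's array medians were above 0 on all 8 arrays, from 0.039 to 0.47. On the values as deposited, 6 of the list's means were above 0 and 5 below, and the same held without run 2 and without run 3. With quantile normalization 10 were above 0 and 1 below, and with arrays scaled to one spread 9 and 2.

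B cell genes that are silenced in plasma cells lay on both sides of the array median, and the balance moved with the arrays used. Of 23 B cell genes 20 were tested, 0 passed, and 12 were above 0 and 8 below, with a median of 0.029 that turned to -0.0064 with arrays scaled to one spread, to -0.011 with quantile normalization and to -0.074 on the values as deposited. Without run 2, 4 were above 0 and 16 below, with a median of -0.053, beside 2895 above and 2516 below over all rows. EBF1, a B cell lineage factor, was at 0.48 ± 0.28 (SE, n = 8) and at -0.025 without run 2. MYC, a growth regulator that Blimp-1 represses and IRF4 activates, was at 0.34 ± 0.13, and at 0.38 without run 2. MYC and PRDM1 thus both had means above 0, and MYC was above 0 on 7 of 8 arrays. Among the corepressors that work with Blimp-1, 3 of 7 were tested, 0 passed, and 2 were above 0 and 1 below, with a median of 0.25. KDM1A, a histone demethylase, was at 0.39 ± 0.25 and HDAC2, a histone deacetylase, at 0.25 ± 0.13. KDM1A held 2.19 on sample 1 at 12 h. Without run 2 the KDM1A mean was 0.0036, which was also the list's median, and HDAC2 was at 0.083.

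Secretory pathway genes of the XBP1 programme lay mostly above the array median. Of 34 genes 15 were tested, 0 passed, and 12 were above 0 and 3 below, with a median of 0.14; on the values as deposited 8 were above 0 and 7 below. SSR3, which encodes part of the complex beside the translocon, was at 0.64 ± 0.15 (SE, n = 8) and above 0 on 8 of 8 arrays, from 0.26 to 1.11. HSP90B1, the chaperone GRP94, was at -0.45 ± 0.31, with -2.82 on sample 3 at 12 h, and at -0.29 without run 2. The list's array medians and the XBP1 values differed on run 2: the medians were -0.36, -0.014 and 0.28 on the 8 h, 12 h and 24 h arrays of that run, where XBP1 read 0.72, 1.26 and -0.66. Of 9 sensors and factors of the unfolded protein response 5 were tested, 0 passed, and 2 were above 0 and 3 below, with a median of -0.035 that was 0.076 with arrays scaled to one spread and 0.10 without run 2. DDIT3, the stress factor CHOP, was at 0.17 ± 0.15, and at 0.10 without run 2, and MBTPS1, the protease that activates ATF6, at -0.14 ± 0.22, and at 0.21 without run 2.

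The partners of IRF4, ELL2 and SLAMF7 showed no called change either. Of 13 IRF family members and IRF4 partners 7 were tested, 0 passed, and 6 were below 0, with a median of -0.12. IRF9, the DNA-binding part of the interferon factor ISGF3, was at -0.32 ± 0.17 (SE, n = 8), and SPIB, an Ets factor that binds DNA with IRF4, at 0.34 ± 0.25 (n = 7). Without run 2 they were at -0.031 and -0.044, and the list's median was -0.040. Of 20 elongation factors that work with ELL2 6 were tested, 0 passed, and 5 were below 0, with a median of -0.11. CDK9, the kinase of P-TEFb, was at -0.31 ± 0.17 (n = 8) and SUPT4H1, a subunit of the elongation factor DSIF, at -0.088 ± 0.14. Without run 2 they were at -0.090 and 0.098, and the list's median was -0.049. On the arrays where ELL2 was lowest, sample 2 at 8 h and sample 1 at 12 h, CDK9 read -1.22 and -0.54. MLLT3, a subunit of the super elongation complex, read 1.18 and 1.66 on the same arrays, with a mean of 0.97 ± 0.23 (n = 6); it was chosen after its values were seen.

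Other genes of the SLAM family gave mixed values. Of 12 SLAM family genes and adaptors 6 were tested, 0 passed, and 3 were above 0 and 3 below, with a median of -0.018. SLAMF1, a receptor of activated lymphocytes, was at 0.19 ± 0.41 (SE, n = 7) and at -0.22 without run 2, and INPP5D, the phosphatase SHIP1 that SLAM receptors recruit, at -0.15 ± 0.15 (n = 8) and at 0.028 without run 2. On sample 1 at 12 h, where SLAMF7 read -1.48, SLAMF1 read 3.04, and on sample 2 at 8 h, where SLAMF7 read -1.32, it read 0.020. The list's medians on the run 2 arrays were -0.49, 0.28 and 0.32, where SLAMF7 was at -1.32, -1.48 and -1.29. This comparison over genes carries no test.

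**Figure D4:**
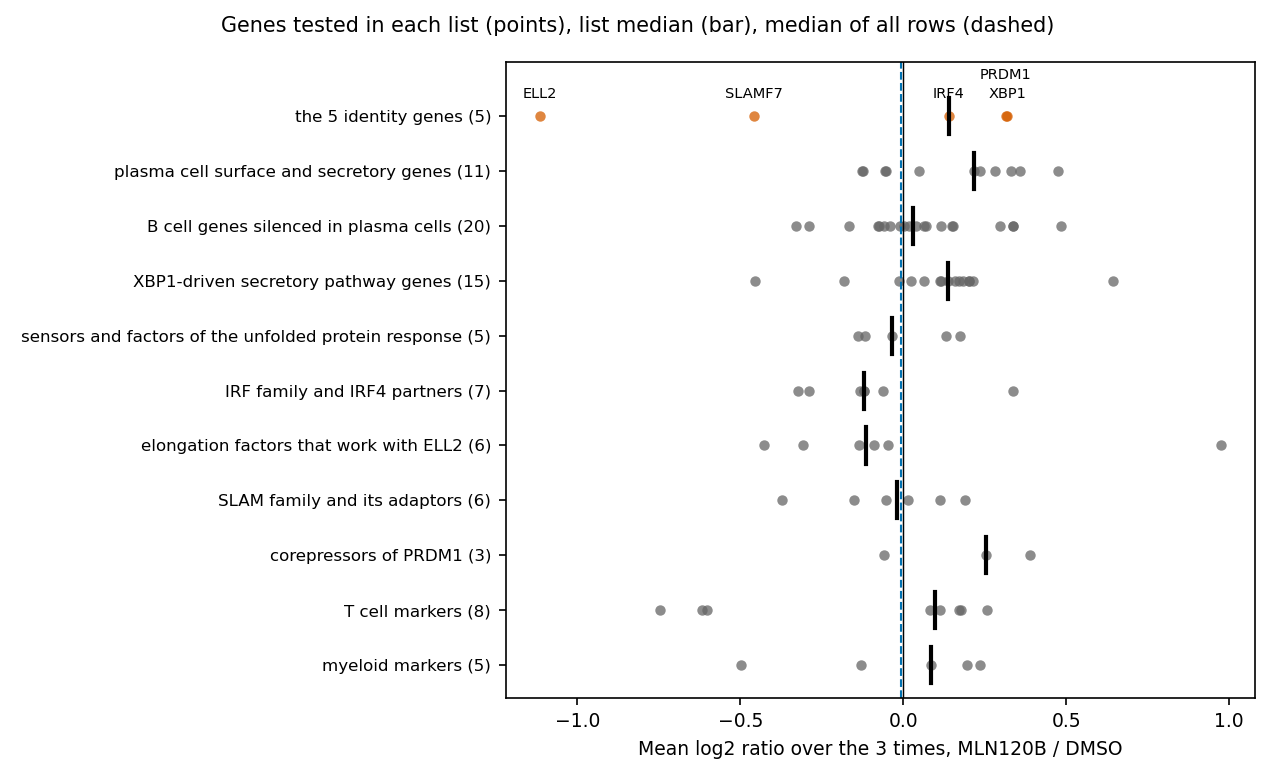
Mean log2 ratio over the 3 times (horizontal axis) of every tested gene in each list (points, number tested in parentheses), with the list median as a bar and the median of all rows as a dashed line. The 5 identity genes spread from -1.11 for ELL2 to 0.32 for XBP1, and the plasma cell surface and secretory list has a median of 0.22.

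Single markers of other blood cells had extreme values on an array where ELL2 was lowest, but the T cell markers did not move together there. Of 10 T cell markers 8 were tested, 0 passed, and 5 were above 0, with a median of 0.097 and array medians from -0.13 to 0.60. GATA3, a T cell factor, read -5.10 on sample 1 at 12 h, and CD3D, a T cell receptor chain, -5.13 on sample 2 at 8 h, with means of -0.75 ± 0.54 and -0.62 ± 0.48 (SE, n = 8). CD3D read 0.60 on sample 1 at 12 h, and GATA3 read -0.98 on sample 2 at 8 h. The median of the T cell list was 0.60 and -0.13 on these arrays. Of 9 myeloid markers 5 were tested, 0 passed, and 3 were above 0, with a median of 0.085 and array medians from -0.91 to 0.68. CD68, a macrophage lysosomal protein, was at -0.50 ± 0.29 (n = 8) and TYROBP, a myeloid signalling adaptor, at 0.24 ± 0.16 (n = 7). Without run 2, GATA3 was at 0.090, CD3D at 0.30, CD68 at -0.045 and TYROBP at 0.027. Quantile or scale normalization turned the sign of MBTPS1, SUPT4H1 and SLAMF1, quantile normalization that of CD3D, and the values as deposited that of the myeloid median. Ratios do not show whether these genes are expressed, and their part in the values of the 5 genes was not tested.

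The genes most like each member were sought among named genes with values on the same arrays, after dividing each array by its SD, and are given as a description. Over 8 arrays and 2285 genes, PRDM1 was most like COX17 (Pearson r = 0.93), MICA (0.92) and PGRMC2 (0.90). XBP1 was most like KLC1 (0.96), MORC3 (0.93) and RPS3A (0.92), and IRF4 was most like PPP1R12A (0.95), TARS1 (0.91) and ANKRD17 (0.88). SLAMF7 was most like NANOG (0.98), UBE2V1 (0.96) and F2 (0.96). ELL2, over 7 arrays and 2296 genes, was most like KDSR (0.98), HCLS1 (0.97) and UBE2V1 (0.95). Among the 5 genes themselves the closest pair was ELL2 and SLAMF7, at 0.83 over 7 arrays, and PRDM1 and IRF4 were the farthest apart, at -0.42 over 8. The arrays share runs, and r taken as the best of so many genes is high by choice.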

How the data were processed

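The authors deposited a log2 ratio for each feature on each of 8 arrays; base 2 was read from the values, whose largest size is 12.4, and is assumed for all arrays. How the authors corrected background, normalized or centred is not given in the sources used here. Each array was centred on its median. Deposited medians ran from -0.475 to 0.001. The platform annotation named 1 gene for 10169 features; symbols were updated through RefSeq names (GRCh38.p14), and the features of a gene were averaged.

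Rows with fewer than 2 values at any time were left out, and 5411 remained, including 3311 named genes. limma 3.58.1 in R 4.3.3 (lmFit, eBayes, 5 residual degrees of freedom) fitted a mean for each time, 2-sided, with Benjamini-Hochberg adjustment over all rows and a threshold of 0.05. Ratios were set against 0, so the spread of the DMSO cells does not enter. Fits were tested on simulated data. Python 3.11.15 and pandas 2.3.3 prepared tables, and matplotlib 3.10.9 the plots. The number of arrays limits the precision.

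Members and lists were chosen with earlier results of these data known. Named were the 5 genes, the 2 members of each list with the largest mean on at least 7 arrays, and the 3 genes most like each member. Alternatives were other normalizations, filters, feature summaries, blocks, weights, and arrays or runs left out.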

Additional observations from a re-analysis of the deposited data

How the results depend on the processing

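PRDM1 and XBP1 kept their sign and did not pass in any of the 25 and 24 alternatives run, with means of 0.19 to 0.46 for each. IRF4 turned below 0 with the median of its features (-0.00061) and with 1 feature taken alone (-0.13). ELL2 and SLAMF7 turned above 0 without database run 2 (0.089 and 0.12). Without run 3 ELL2 was at -2.31, in a fit with a single array with an ELL2 value at 8 h and at 12 h. Whether ELL2 passed in that fit is not given, because its SE does not measure the spread at those times. The cause of these shifts was not tested. With 1 array left out, the means ranged from 0.27 to 0.37 for PRDM1, 0.21 to 0.41 for XBP1, 0.039 to 0.22 for IRF4, -1.74 to -0.49 for ELL2 and -0.71 to -0.21 for SLAMF7; ELL2 was at -0.56 without sample 2 at 8 h and -0.49 without sample 1 at 12 h, and SLAMF7 at -0.21 and -0.27. Leaving out 1 array gave 0 of the 5 genes in every comparison.

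Rows called over all genes, 0 in every comparison as reported, were as follows elsewhere. Over the 3 times, quantile normalization gave 2, the filter of 1 array at each time 2, the run as a fixed block 6, and the fit without run 3 gave 38. At 8 h the looser filter gave 10 and the fit without run 3 gave 64. At 12 h the fit without run 1 gave 1. At 24 h quantile normalization gave 2 and the fit without run 3 gave 2. For 24 h minus 8 h the looser filter gave 3 and the fit without run 3 gave 40, for 12 h minus 8 h 5 and 46, and for 24 h minus 12 h the fit without run 3 gave 1. With 1 array left out the counts ran from 0 to 50 over the 3 times, 0 to 125 at 8 h, 0 to 1 at 12 h, 0 to 2 at 24 h, 0 to 70 for 24 h minus 8 h, 0 to 71 for 12 h minus 8 h and 0 to 2 for 24 h minus 12 h, the highest counts at 8 h and over the 3 times coming without sample 1 at 8 h. Fits that leave 1 array at a time assume that it varies like the others.

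With the sample number as a replicate block 0 rows passed in every comparison and no call changed, with PRDM1 at 0.34, XBP1 at 0.34, IRF4 at 0.10, ELL2 at -1.11 and SLAMF7 at -0.37. Arrays of different times with the same number correlated at -0.26 to 0.33 in their deviations from the time means (7 pairs). Those of the same run correlated at 0.15 to 0.33 (7 pairs). Between 12 h and 24 h, arrays with the same number are also of the same run. With 2 arrays at 8 h, their deviations mirror each other. The correlations therefore cannot tell whether the numbers pair the samples. The numbers were not taken to do so, because the labels do not say that they mark a shared culture.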
